A study of Caenorhabditis elegans with 4 samples.

Results

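The H3K4me3 regions of chromosome IV of Caenorhabditis elegans were taken from 2 peak lists, 1 for each ChIP replicate. Peaks of the replicates that overlapped by at least 1 bp were joined into 1 region. Chromosome IV held 732 of the 4661 regions on the 6 chromosomes. Of these, 462 held a peak of each replicate and are called shared, 219 held a peak of replicate 1 alone and 51 a peak of replicate 2 alone. Both samples were H3K4me3 ChIP-seq of whole wild-type N2 larvae at the third larval stage, raised in liquid culture and crosslinked with 1% formaldehyde after grinding. Both were precipitated with the same antibody from Wako, and the labels pair each with an input DNA sample that was not analysed here. No source says that the replicates came from separate cultures, so differences between them may be technical. Read depths are not known, and no gene was assigned to any region.

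Trimethylation of lysine 4 on histone H3 is placed by methyltransferases of the SET1/COMPASS family and is found around the 5′ ends of transcribed genes. The autosomes of C. elegans have gene-rich centres with little meiotic recombination and arms with more repeats and more recombination. Chromosome IV is known for carrying most of the genes for 21U-RNAs, the piRNAs of this worm, in large clusters, 1 of them in its right arm. Since whole larvae were used, a site marked in few cells and a site marked weakly in many cells cannot be told apart.

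Chromosome IV was among the more sparsely marked autosomes in both replicates. Replicate 1 had 685 peaks on it (39.2 per Mb) and replicate 2 had 525 (30.0 per Mb), against 31.3 to 58.8 and 24.7 to 44.2 per Mb on the other 4 autosomes. The density of shared regions was 26.4 per Mb, below the mean of the other autosomes (32.9 ± 9.16 per Mb, SD, n = 4 chromosomes) but within 1 SD of it. Chromosome V was sparser at 20.7 per Mb, and chromosomes II, I and III were denser. Peaks of replicate 1 covered 6.11% of the span of IV and those of replicate 2 covered 4.90%. The span is the end of the last peak, at 17.5 Mb. With 2 samples of a single group, no test over samples exists, so the differences between chromosomes or segments given here were not tested.

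The replicates found the same sites on IV about as often as elsewhere. Of all regions, 63.1% were shared on IV, where 62.6% were shared over all chromosomes. This background includes the X chromosome, with 55.1% shared, and the other autosomes had 59.9 to 68.7%. Of the replicate 2 peaks on IV, 474 of 525 were found in replicate 1 (90.3%, 95% Wilson interval 87.5 to 92.5%, background 91.3%). Of the replicate 1 peaks, 466 of 685 were found in replicate 2 (68.0%, 64.4 to 71.4%, background 66.9%). On the other autosomes together, the shares found were 91.4% for replicate 2 and 68.6% for replicate 1. The intervals cover counting error only. In the 446 shared regions with a single peak in each list, the called starts lay a median of 56 bp apart and the ends 55 bp apart. A median of 89.7% of such a region was covered by both peaks.

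Along the chromosome, the middle was the most densely marked and the right end the least. With the span divided into 3 equal parts of 5.82 Mb, the left part held 155 shared regions (26.6 per Mb), the middle part 193 (33.1 per Mb) and the right part 114 (19.6 per Mb). The middle was thus 1.43 times as dense as the outer parts together. Its ratio was 1.49 in the list of replicate 1 and 1.29 in that of replicate 2. The corresponding ratio of shared regions ranged from 1.43 to 1.88 on the other autosomes. The right part of IV held 0.735 times as many shared regions as the left, with 0.754 in replicate 1 and 0.697 in replicate 2. On chromosomes I and V the right part was also the sparser one (0.823 and 0.866), whereas on II and III it was the denser one (1.74 and 1.26).

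**Figure D1:**
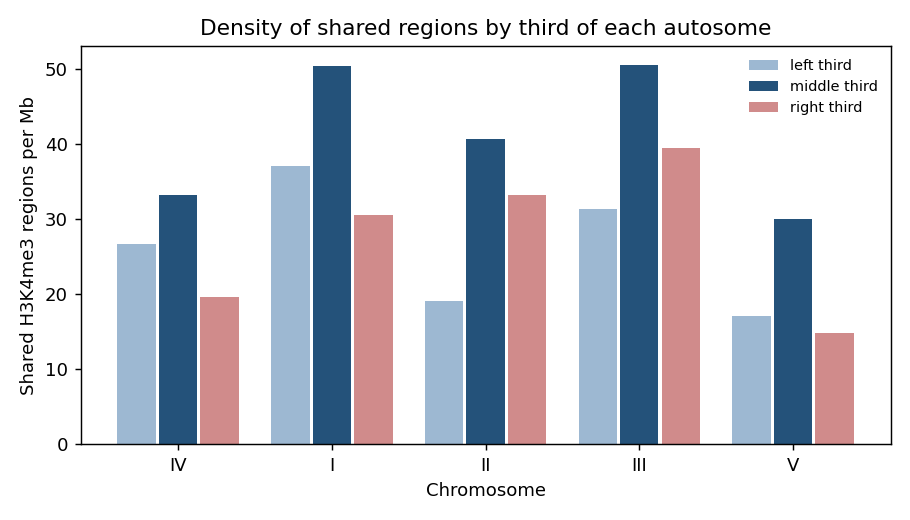
Shared H3K4me3 regions per Mb (vertical axis) in the left, middle and right of 3 equal parts of each autosome (horizontal axis); bars are counts divided by length, with no replicate error. On chromosome IV the bars stand at 26.6, 33.1 and 19.6 per Mb, and on every autosome the middle bar is the tallest.

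In 1 Mb windows, the 17 whole windows of IV held 11 to 43 shared regions, with a median of 26. The windows from 7 to 8 Mb (43 shared regions) and from 11 to 12 Mb (42) held the most. The window from 11 to 12 Mb also had the greatest shared coverage, 107.7 kb, and the greatest median width of shared regions, 2129 bp. The 3 windows with the fewest lay side by side, with 14 shared regions from 14 to 15 Mb, 11 from 15 to 16 Mb and 13 from 16 to 17 Mb. Both lists followed this order. Replicate 1 had 16 peaks and replicate 2 had 13 in the window from 15 to 16 Mb, and 63 and 46 in that from 7 to 8 Mb. Across the 17 windows the peak counts of the lists correlated with Pearson's r of 0.912 and Spearman's rho of 0.895, a description of windows that share their libraries.

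**Figure D2:**
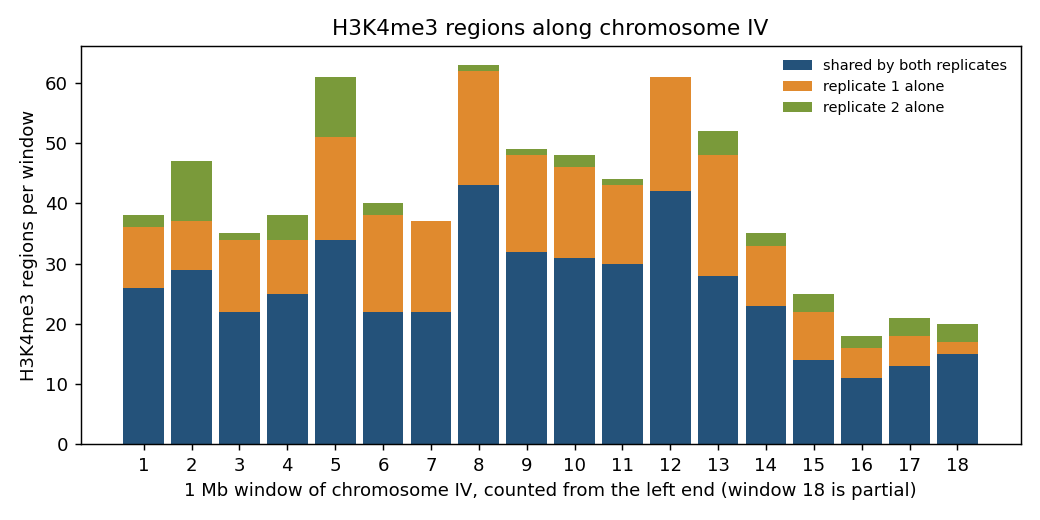
Number of H3K4me3 regions (vertical axis) in successive 1 Mb windows of chromosome IV (horizontal axis), stacked by class: shared, replicate 1 alone and replicate 2 alone. Windows 8 and 12 reach 43 and 42 shared regions, and windows 15 to 17 hold 14, 11 and 13.

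The stretch from 13 to 17 Mb was chosen with earlier results of these data known. It held 61 shared regions (15.2 per Mb), against 401 on the rest of IV (29.8 per Mb). Regions of replicate 1 alone were also sparser there, at 7 against 14.2 per Mb. Regions of replicate 2 alone stood at 2.5 against 3.04 per Mb, with only 10 and 41 regions behind these values. The mean score percentile of the shared regions in the stretch was 62.0, against 60.5 elsewhere on IV, where the percentile is the rank of a region's highest peak within its whole list, averaged over both lists. It varied within the stretch, from 66.2 between 13 and 14 Mb to 50.6 between 15 and 16 Mb, the lowest of the whole windows of IV. From 14 to 17 Mb it was 59.5. Of the 61, 18 reached the score ceiling of 3100 in both lists (29.5%, 95% Wilson interval 19.6 to 41.9%), against 90 of 401 (22.4%, 18.6 to 26.8%) and a background of 20.3% over all chromosomes. These intervals overlap. Their median width was 1750 bp, against 1599 bp. To the right of the stretch, the last 0.472 Mb held 15 shared regions, or 31.8 per Mb.

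The low density between 13 and 17 Mb lay in long stretches without a peak of either list. Gaps of at least 100 kb numbered 17 on IV, or 2.33% of its 731 gaps between neighbouring regions, where the background over all chromosomes was 2.00%. Of these 17, 10 lay between 13 and 17 Mb. They made up 10.2% of the 98 gaps there and covered 1.80 Mb, 44.9% of that stretch. On the rest of IV, 7 of 633 gaps were as long (1.11%) and covered 7.21% of its length. The median gap differed far less, with 13.8 kb (interquartile range 3.65 to 50.1 kb) inside the stretch and 11.4 kb (3.42 to 28.0 kb) outside it.

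**Figure D3:**
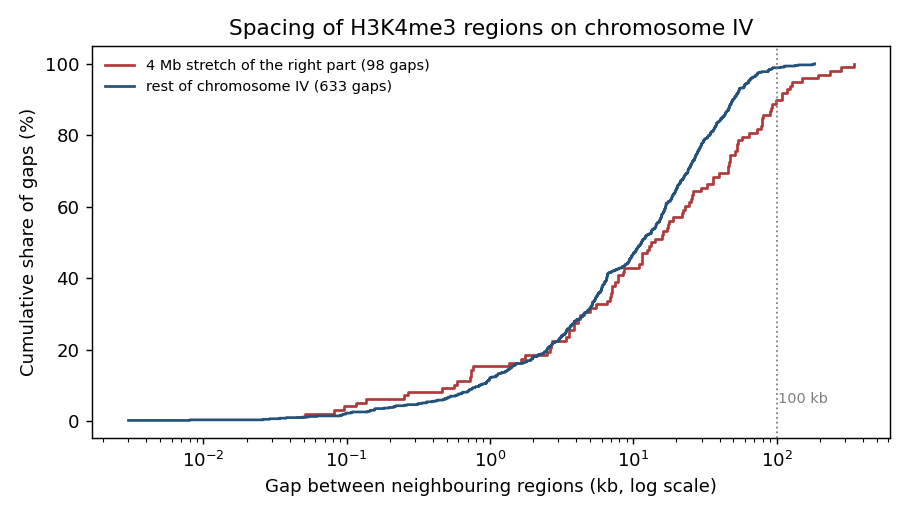
Cumulative share of gaps (vertical axis, %) by gap length (horizontal axis, kb, log scale) between neighbouring H3K4me3 regions of either list, for the stretch from 13 to 17 Mb (98 gaps) and the rest of chromosome IV (633 gaps). The curves run close together up to about the median and part above it, with 10.2% and 1.11% of gaps at or beyond the dotted line at 100 kb.

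The longest gap of IV spanned 347.9 kb (14115689 to 14463575, WS190 build). On its left stood a weak peak of replicate 1 alone (800 bp, score 56.3), and on its right a shared region of 2358 bp (14463576 to 14465933) at the ceiling in both lists. The next 2 gaps, of 282.3 kb (15647595 to 15929940) and 235.4 kb (15932250 to 16167631), were separated by a shared region of 1346 bp and a weak neighbour. They belonged to the emptiest part of the chromosome, from 15528956 to 16387810. That part was picked out after its values were seen. In its 858.9 kb there were 5 regions, 3 shared and 2 of replicate 1 alone, which covered 0.839% of it. None of the 3 shared regions was at the ceiling in both lists. The fourth gap spanned 194.6 kb (15275873 to 15470520) and ended at a shared region of 3037 bp at the ceiling in both lists.

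The other 6 gaps of at least 100 kb in the stretch measured 108.3 to 151.3 kb. From left to right they ran from 13549868 to 13701132 (151.3 kb), 14657802 to 14766909 (109.1 kb), 14827699 to 14954740 (127.0 kb), 15528956 to 15646674 (117.7 kb), 16170997 to 16294054 (123.1 kb) and 16736804 to 16845073 (108.3 kb). Between the gaps stood single regions or clusters of regions. A cluster from 14766910 to 14827698 held 5 shared regions and 1 of replicate 1 alone within 60.8 kb, with 3 at the ceiling in both lists, and one from 15470521 to 15528955 held 4 shared regions and 2 of one list alone within 58.4 kb. Outside the stretch, the longest gaps were 184.4 kb (4811673 to 4996087) and 178.4 kb (12849785 to 13028228), the latter ending just inside its left edge. With shared regions alone, the longest gap grew to 390.5 kb (14073064 to 14463575).

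Long gaps were not limited to chromosome IV. Chromosome V had 37 gaps of at least 100 kb, which covered 28.2% of its span with a longest of 546.9 kb, and IV followed with 15.8%. Chromosome II had 13 such gaps, I had 4 and III had 2. The gaps of IV lay mostly to one side, with 4 in the left part, 2 in the middle and 11 in the right. Those of II lay mostly on the left (11, 1 and 1), and those of V at both ends (15, 5 and 17). Among 4 Mb windows set at each whole Mb, the one from 13 to 17 Mb was the sparsest of 14 on IV. Since that window was chosen with earlier results of these data known, its rank is a description and no support for its sparseness. No such window of I, II or III held as few as its 61 shared regions, the lowest counts being 104, 66 and 110. On V, 5 of 17 windows held as few or fewer, down to 41.

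Spacing was wide and uneven over IV as a whole. Neighbouring shared regions were separated by a median of 19.5 kb (interquartile range 5.50 to 46.5 kb), against medians of 14.4 to 27.1 kb on the other autosomes. The median was 19.6 kb in the left part, 18.7 kb in the middle and 24.0 kb in the right. The 3 tightest runs of 10 successive shared regions lay outside the right part. One from 2656379 to 2726414 took up 70.0 kb, with a median width of 1291.5 bp and 1 region at the ceiling in both lists. The others took up 103.5 kb (7477917 to 7581423) and 109.9 kb (11297863 to 11407736). The median length of such a run was 300.1 kb on IV, against 202.5 to 347.6 kb on the other autosomes.

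The shared regions of IV had median scores of 2638 in replicate 1 and 1116 in replicate 2. Most of the most isolated shared regions named here scored below both medians. The one farthest from its neighbours (16167632 to 16170996, 3365 bp) lay 123.1 kb from the nearest region of either list. It scored 1941 in replicate 1 and 406.9 in replicate 2. The next (15646675 to 15647594) was a narrow site of 920 bp, 117.7 kb from its nearest neighbour, with scores of 950.3 and 381.7. The third (13701133 to 13703367, 2235 bp) lay 73.3 kb away and scored 2118 and 730.0. In the left part, a region at 2111746 to 2113429 was 61.2 kb from its nearest neighbour and scored 383.9 and 190.3. Only the fifth, at 1177659 to 1178972 and 60.0 kb from its neighbour, was at the ceiling in both lists.

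The score of a peak is the authors' own value on a scale that no source names, with lowest values just above 50 and many ties at 3100. In replicate 1, 218 of 685 peaks on IV were at or above this ceiling (31.8%, 28.4 to 35.4%, background 29.8%), and in replicate 2, 108 of 525 (20.6%, 17.3 to 24.2%, background 18.1%). The other autosomes stood at 29.6 to 34.0% and 14.9 to 22.7%. Shared regions of IV had a mean score percentile of 60.7, against 59.5 to 62.6 on the other autosomes. Within IV it was 60.8 in the left part, 59.6 in the middle and 62.4 in the right. The densely marked middle had the smallest share of regions at the ceiling in both lists, 20.2% against 27.7% in the left part and 22.8% in the right (background 20.3%). The middle had the smallest share on each of the other autosomes as well, with 12.4 to 22.4%.

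Scores on IV ranked alike in both replicates. The scores of its 462 shared regions correlated between the lists with a Spearman's rho of 0.892, and this was 0.857 to 0.906 on the other autosomes. Over the 246 regions below the ceiling in both lists it was 0.749, against 0.744 to 0.852. These are descriptions across sites of the same 2 libraries. The percentile differed by more than 30 points between the lists in 34 shared regions of IV (7.36%), and replicate 1 was the higher one in 28 of them. On the other autosomes together this share was 7.45%, and replicate 1 was the higher one in 140 of 153. The lists differ in length (4408 and 3280 peaks), so a higher percentile does not show a stronger mark. The widest percentile difference on IV was at 4655625 to 4656971, which scored 74.3 in replicate 1 and 1325 in replicate 2. The next in order went the same way, at 7753518 to 7754847 (80.5 and 1400) and at 1548651 to 1550435 (206.8 and 2573). In the opposite direction, the region at 10934637 to 10937412 scored 1504 in replicate 1 and 71.3 in replicate 2, where it was split into 2 peaks.

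**Figure D4:**
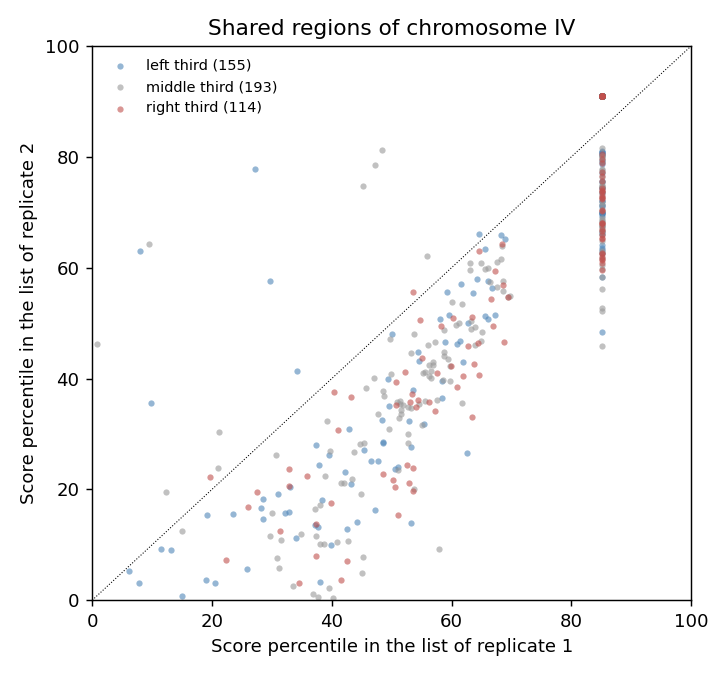
Score percentile of each of the 462 shared regions of chromosome IV in the list of replicate 1 (horizontal axis) and of replicate 2 (vertical axis), coloured by left, middle and right of 3 equal parts; the dotted line marks equal percentiles. Regions at the score ceiling share the percentiles 85.1 and 90.9 and form the column and the single spot at the right, and the 3 colours overlap throughout.

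Regions with higher scores were wider. The median width of shared regions on IV was 1606.5 bp (quartiles at 1211 and 2354.5 bp), and the other autosomes had medians of 1566 to 1733 bp. The 108 regions at the ceiling in both lists had a median of 2510.5 bp. Another 108 were at the ceiling in replicate 1 but not in replicate 2, with a median of 1732.5 bp. The 246 below it in both had a median of 1302 bp, and 0 were at the ceiling in replicate 2 but not in replicate 1. The peak of replicate 1 was the wider one in 305 of the 446 regions with a single peak in each list (68.4%, 63.9 to 72.5%). On the other autosomes together that share was 63.2% (61.1 to 65.3%). The median log2 ratio of widths, replicate 1 over replicate 2, was 0.06 on IV. Medians by part of the chromosome were close, with 1640 bp on the left, 1600 bp in the middle and 1638 bp on the right.

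Broad regions were few on IV. Of its 462 shared regions, 6 were wider than 5 kb (1.30%, background 2.23%), whereas the other autosomes had 12 to 15 each. These counts are small and the difference was not tested. With peaks of a list closer than 500 bp merged, IV had 8 such regions, and the other autosomes were not measured that way. Single peaks wider than 5 kb were also fewer than on the other autosomes, with 4 in replicate 1 against 7 to 15, and 2 in replicate 2 against 6 to 9. The X chromosome, which the background includes, had 5 such shared regions (1.24%), and 3 and 2 such peaks. Of the 6, 3 lay in the middle part and 3 in the right, with 0 in the left. The 3 in the middle all lay between 11 and 12 Mb. The widest (11116866 to 11123443, 6578 bp) was covered in full by replicate 1 and over 5437 bp by replicate 2. The other two there were at 11592173 to 11597831 (5659 bp), covered over 3733 bp by replicate 2, and at 11522036 to 11527633 (5598 bp). The latter was 1 peak in the list of replicate 1 and split into 2 peaks in that of replicate 2. It was at the ceiling in replicate 1 and scored 1827 in replicate 2.

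Of the 3 broad regions of the right part, 2 lay within the sparse stretch and 1 in the denser last 0.472 Mb to its right. The one at 14821975 to 14827698 (5724 bp) was broader than 5 kb in each list, with 5724 and 5341 bp, was at the ceiling in both, and stood at the left edge of a gap of 127.0 kb. The one at 16487789 to 16493761 (5973 bp) was covered over 5903 bp by replicate 1 and 4256 bp by replicate 2, with a score of 2158 in the latter. The one at 17277184 to 17282512 (5329 bp) was under 5 kb in each list, with 4950 and 4385 bp. Just below the threshold stood regions of 4845 bp (8429245 to 8434089), 4643 bp (14791652 to 14796294) and 4568 bp (384182 to 388749). The last of these was the widest shared region of the left part and was at the ceiling in both lists, as was the tenth widest of IV, of 4506 bp (11854149 to 11858654).

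**Figure D5:**
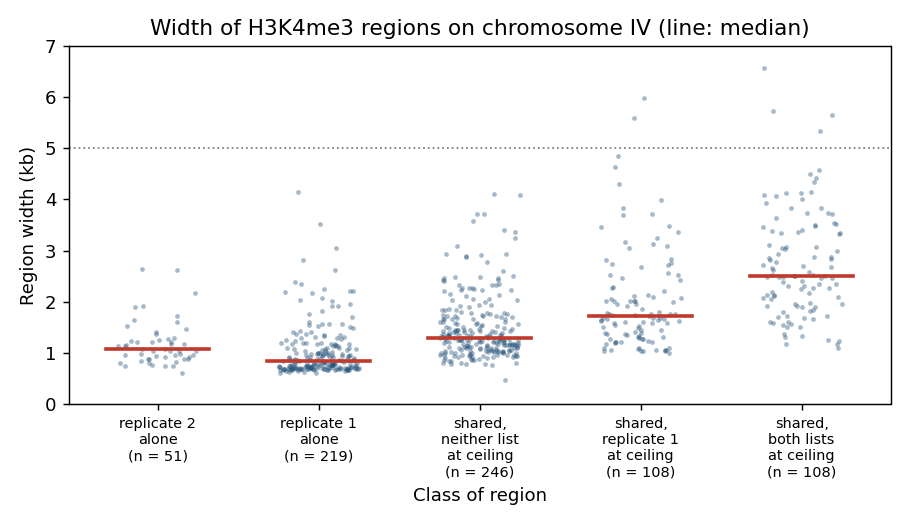
Width in kb (vertical axis) of every H3K4me3 region of chromosome IV, grouped by class (horizontal axis) from regions of one list alone to shared regions at the score ceiling in both lists; points are regions and red lines are medians. Medians are 1070, 842, 1302, 1732.5 and 2510.5 bp from left to right, and the 6 points above the dotted line at 5 kb are shared regions at the ceiling in replicate 1 or in both lists.

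Regions found in one list alone were mostly weak. The 219 of replicate 1 alone had a median score of 120.2 (interquartile range 78.0 to 206.3) and a median width of 842 bp, and 187 of them scored under 300 (85.4%, against 82.5% on the other autosomes). The 51 of replicate 2 alone had a median score of 71.9 (60.0 to 116.9) and a median width of 1070 bp, and 46 scored under 300 (90.2%, against 86.9%). The share of replicate 1 peaks on IV that were found in replicate 2 was 11.8% at scores under 100, 23.9% from 100 to 300, 75.7% from 300 to 1000 and 96.9% from 1000 to the ceiling. At the ceiling it was 99.1%, with 216 of 218 found, and on the other autosomes 987 of 988 were found. Regions of replicate 1 alone lay a median of 9.17 kb from the nearest shared region, against 6.50 to 8.45 kb on the other autosomes. Those of replicate 2 alone lay a median of 9.38 kb from it, against 8.60 to 13.5 kb.

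The 2 ceiling peaks of IV without a partner were both wide. The one at 14093025 to 14096540 (3516 bp) stood 116 bp from another strong peak of replicate 1 alone, at 14090290 to 14092908 (2619 bp, score 1815). Replicate 2 had a single weak peak beside this pair (14098293 to 14099166, score 61.5), 1752 bp away. Between this pair and the longest gap there were 3 regions, all of one list alone, with scores of 61.5, 208.0 and 56.3. The one at 3368291 to 3371335 (3045 bp) had its nearest neighbour in replicate 2 at a distance of 11451 bp. The next strongest of replicate 1 alone were at 11549707 to 11551903 (score 2597) and at 8791025 to 8795163 (4139 bp, score 2119).

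Regions of replicate 2 alone lay mostly outside the middle of IV, with 29 in the left part, 5 in the middle and 17 in the right. Peaks of replicate 2 were found in replicate 1 in 84.6% of cases on the left (159 of 188, 78.7 to 89.0%), 97.6% in the middle (201 of 206, 94.4 to 99.0%) and 87.0% on the right (114 of 131, 80.2 to 91.7%). The interval of the middle lay above those of both ends, but these intervals treat neighbouring peaks of 1 library as independent and cover counting error only. The parts also differed in scores, with 20.7%, 13.6% and 16.8% of replicate 2 peaks under 100 on the left, in the middle and on the right. Of these, 23 of 39, 23 of 28 and 8 of 22 were found. Between scores of 100 and 300, 25 of 35 were found on the left, 29 of 29 in the middle and 18 of 19 on the right. The middle had the highest value of the 3 parts on each of the other autosomes as well, with 90.7 to 97.5%. Peaks of replicate 1 did not show this order on IV, with 70.1%, 66.8% and 67.5% found and intervals that overlap.

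A pair of 1 Mb windows, from 1 to 2 Mb and from 4 to 5 Mb, held 10 regions of replicate 2 alone each, 20 of the 51 on IV (39.2%). This pair was picked out after its values were seen. The other 15 whole windows of IV held 0 to 4, and the highest counts in whole windows of I, II, III and V were 6, 7, 5 and 9. A denser case stood on chromosome III, where the last, partial window of 0.772 Mb held 12. In the first window the 10 scored from 51.4 to 1266 with a median of 66.3, and in the second from 68.4 to 1369 with a median of 123.5. The strongest region of replicate 2 alone on IV (4515002 to 4517651, 2650 bp, score 1369) was the first of 3 such regions within 9.0 kb and stood 971 bp from a peak of replicate 1. The next (1817804 to 1819326, 1523 bp, score 1266) was the first of 3 within 14.2 kb, and replicate 1 had no peak within 27.1 kb of it. The third in order scored 619.0 (1353511 to 1354580, 1070 bp) and also lay in the window from 1 to 2 Mb. In both windows shared regions numbered 29 and 34, above the median of 26 for whole windows.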

How the data were processed

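Per the labels, chromatin of whole N2 larvae was sonicated, and gel-sized fragments were made into PCR-amplified libraries. The submitters' processing notes name the aligner BWA without a version. Per the file headers, positions are on the WormBase WS190 build. The deposited lists hold, for each sample on its own, other values (peak starts and ends) and a score per peak from the authors' peak caller. Both MACS and MA2C are named in them. Score thresholds and filters are unknown here, so an absent peak does not show an absent mark.

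Peaks were joined in Python 3.11.15 with pandas 2.3.3 and numpy 2.4.6, and the joining was checked on simulated lists. In 5 peaks, a start below 1 was set to 1. Regions were assigned to windows by their midpoint. Scores above 3100 were ranked as tied with 3100. Intervals are 95% Wilson intervals (scipy 1.17.1). Intervals cover counting error only, since they treat peaks or regions of the same libraries as independent. No read counts were used, and PCR copies of a fragment are not separate molecules. No annotation of WS190 was used, so the rule for named items was applied to regions. It took the 10 widest, all over 5 kb and the 5 strongest of each list alone. Gaps were the 5 longest and those of at least 100 kb between 13 and 17 Mb. The rest were the 5 most isolated shared regions, the 1 Mb windows with the most and fewest shared regions and the 3 tightest runs of 10. Other regions and windows named were chosen after their values were seen. The chromosome, the stretch from 13 to 17 Mb and these rules were chosen with earlier results of these data known. Alternatives were other overlaps, score thresholds, list lengths, merging, arms and each replicate left out.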

Additional observations from a re-analysis of the deposited data

How the results depend on the processing

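Of 63 alternative values for 11 results, 37 moved by less than 1 SD between the replicates (shares: stayed within the 95% interval, the number of broad regions: within 1.5 times) and 26 moved further. The SD was taken between the values for all peaks of each single list. It is therefore no measure of the spread of results for shared regions. The values with a replicate left out are the ones that gave this SD, so they are not independent of it. Only 2 of the results, with 13 of these values, have a direction, and 0 of the 13 reversed it. With only the peaks that reached their list's median score, which leaves out weaker peaks by construction, there were 14.8 shared regions per Mb on IV and 8.5 between 13 and 17 Mb. The shares found in the other list were then 72.5% (replicate 1) and 96.7% (replicate 2), the log2 ratio of middle to outer density was 0.33, the longest gap between 13 and 17 Mb was 429.7 kb, the median gap 38.6 kb, the median width 1958 bp and the mean percentile 58.2. With lists of equal length, the shares were 86.7% for each list, the longest gap was 360.1 kb and the mean percentile 57.0. With a reciprocal overlap of 50%, the share of replicate 2 was 84.8% and the log2 ratio of right to left density −0.36. With peaks closer than 500 bp merged, the mean percentile was 59.9.

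With either replicate left out, no region can be shared, so all peaks of the remaining list were measured in place of shared regions. Their density ranged from 30.0 to 39.2 per Mb on IV and from 17.8 to 22.2 per Mb between 13 and 17 Mb. The log2 ratio of middle to outer density ranged from 0.37 to 0.57 and that of right to left from −0.52 to −0.41. The longest gap ranged from 347.9 to 364.8 kb, the median gap from 12.8 kb (without replicate 2) to 17.7 kb, the median width from 1246 to 1362 bp, the mean percentile from 50.6 to 51.2 and the number of broad sites from 2 (without replicate 1) to 4 (without replicate 2). These values describe all peaks of 1 list, whose mean percentile over all chromosomes is 50 by construction, and are not shifts of the shared regions. The cause of the shifts under the other alternatives was not tested. No paired analysis was possible because the results come from no test and the analysed samples form a single group. How depth limits weak peaks was not measured, since it is not known.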
